A study of Mus musculus with 8 samples.

Results

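The aldehyde dehydrogenases examined here were 10 genes, Aldh1a1, Aldh1a3, Aldh1a7, Aldh2, Aldh3a1, Aldh3a2, Aldh3b1, Aldh3b2, Aldh7a1 and Aldh9a1, picked by symbol from the 23418 gene symbols of one table that compared the mouse cornea with the limbus. All 10 had reads and passed the minimum used here of more than 3 reads in a library. The samples came from 16 eyes of wild-type C57BL/6J mice aged 8 weeks, with no treatment. The limbal rims, the ring between cornea and conjunctiva where the epithelial stem cells of the cornea sit, were pooled into one group and the central corneal buttons into the other, so each group was a pool of whole tissue from several animals, with epithelium, stroma and endothelium together. The series holds 4 numbered samples of each tissue, but the table gives 1 mean over both tissues for each gene and no value per sample, and it was worked back to whole reads of 1 library per tissue. There was therefore no spread between replicates and no test, and every interval below is a 95% Clopper-Pearson interval that covers counting error only.

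Aldehyde dehydrogenases oxidize aldehydes to carboxylic acids with NAD or NADP as the acceptor of electrons. In the mammalian cornea Aldh3a1 is known to accumulate in the epithelium to the level of a structural protein, and it is called a corneal crystallin for that reason; it oxidizes aldehydes made by lipid peroxidation and is held to absorb ultraviolet light. Aldh1a1 takes the same place in the cornea of some other mammals. The other family members serve narrower pathways: retinoic acid synthesis, breakdown of ethanol, fatty aldehydes and lysine, and carnitine synthesis.

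The named genes held 26104317 reads in the cornea library and 21182025 reads in the limbus library, and reads were divided by the size factors of the table, 1.03 for the cornea and 0.967 for the limbus, to give normalized reads. Corneal epithelial markers were led by Krt12, the cornea-specific keratin, with 1100596 normalized cornea reads and 241197 normalized limbus reads. Of the 6 markers of basal and limbal epithelium, 4 were at least 2-fold higher in the limbus, such as Krt15, a keratin of limbal basal cells, with 36506 and 365766, while Trp63, the basal cell transcription factor, was past 2-fold toward the cornea with 8452 and 4062, and Itgb4, a hemidesmosomal integrin, had 7635 and 6405. The limbus library also held more reads of tissues next to the cornea. All 6 of 6 skeletal muscle markers were at least 2-fold higher there, with a summed level of 79 normalized cornea reads against 10425 limbus reads. So were 5 of 6 blood vessel markers (193 and 2528) and 4 of 6 conjunctival epithelium markers with over 3 reads (179523 and 405722). Past 2-fold toward the limbus were also 5 of 6 lens markers (3498 and 16234), 5 of 5 retina markers (557 and 5427) and 5 of 5 melanocyte markers (306 and 1644). Of the corneal epithelium markers, 5 of 6 had reads, with summed levels of 1718794 and 712544; 4 of the 5 lay toward the cornea, and Clu, clusterin, lay toward the limbus with 6330 and 11742. No muscle, vessel or conjunctival marker with a row of its own was at 0 in either library, although Muc5ac, the goblet cell mucin, had 1 read in each. The part of this tissue make-up in the values below was not tested, and in bulk tissue fewer cells of a type and less RNA per cell cannot be told apart.

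Some of these genes have close copies, and their sequences bear on how their reads can be told apart. Aldh1a1 (chr19:20492715-20643465, plus strand) and Aldh1a7 (chr19:20692953-20727562, minus strand) lie 49.5 kb apart in GRCm38. Their coding sequences, each of 1503 bases in a transcript of 13 exons, were 91.6% identical. Of all 75-base stretches of Aldh1a7 transcripts, 2.51% were also present in Aldh1a1, and 1.01% of those of Aldh1a1 were present in Aldh1a7. The 75-base coding windows below, the length of one sequenced end, are the closest and the farthest of the 2 genes, with differing bases in capitals. The closest lies in exon 3 of the transcripts (chr19:20617934-20618008 of Aldh1a1, chr19:20722290-20722364 of Aldh1a7) and has 0 differences, so that a read end inside it fits both genes equally. The farthest lies in exon 4 (chr19:20619973-20620047 and chr19:20719237-20719311) and has 17.
Aldh1a1 closest: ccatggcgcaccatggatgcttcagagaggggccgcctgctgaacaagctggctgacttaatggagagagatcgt
Aldh1a7 closest: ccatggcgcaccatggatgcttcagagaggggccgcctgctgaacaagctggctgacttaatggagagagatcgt
Aldh1a1 farthest: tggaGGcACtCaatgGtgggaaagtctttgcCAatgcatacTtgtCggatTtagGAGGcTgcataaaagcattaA
Aldh1a7 farthest: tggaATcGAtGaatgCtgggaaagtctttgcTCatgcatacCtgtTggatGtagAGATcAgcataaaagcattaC

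Aldh3a1 (chr11:61207537-61218421, plus strand) and Aldh3a2 (chr11:61223417-61267464, minus strand) also lie side by side, 5.0 kb apart, but shared no 75-base stretch and were 67.7% identical over their aligned coding bases. Their closest coding window, shown to place the most abundant member beside its neighbour, differs at 12 bases, in capitals. It lies in exon 5 of the 11 transcript exons of Aldh3a1 (chr11:61214646-61214720) and exon 4 of the 10 of Aldh3a2 (chr11:61262257-61262331).
Aldh3a1: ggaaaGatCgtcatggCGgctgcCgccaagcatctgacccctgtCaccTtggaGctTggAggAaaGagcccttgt
Aldh3a2: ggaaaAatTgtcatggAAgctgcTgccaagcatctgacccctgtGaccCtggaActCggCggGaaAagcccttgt
Aldh3b2 (chr19:3972328-3981646, plus strand) lies 0.2 kb from Aldh3b3, with 90.6% identical coding bases, and of the 10 members it had the largest share of 75-base stretches found in another gene. Of the 75-base stretches of Aldh3b2, 18.3% were present elsewhere, nearly all in Aldh3b3. Aldh3b3 is not among the named genes, so it has no count to set beside that of Aldh3b2. The reads of Aldh3b2 are therefore the least certain of the 10. Aldh3b1 (chr19:3913491-3929808, minus strand) shared 2.89% of its stretches with those genes, and Aldh1a3 shared 0.587% with genes outside the family. Aldh2, Aldh3a1, Aldh3a2, Aldh7a1 and Aldh9a1 shared none.

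Aldh3a1 had the second most reads of the named genes in the cornea library, 634936, behind Krt12 alone. The limbus library had 255152 reads of it. Normalized, the level was 614210 against 263762, 2.33-fold higher in the cornea, with a log2 ratio of limbus over cornea of -1.22 (interval -1.23 to -1.21). Of the reads on named genes, Aldh3a1 alone took 2.43% in the cornea (2.426 to 2.438) and 1.20% in the limbus (1.200 to 1.209). The 10 genes together took 2.52% of the named-gene reads in the cornea library and 1.29% in the limbus library. Aldh3a1 made up 96.5% and 93.3% of the reads on the 10 genes. Without it, the other 9 genes took 0.0894% of named-gene reads in the cornea (0.08824 to 0.09054) and 0.0858% in the limbus (0.08457 to 0.08707). Nearly all of the difference between the libraries in the summed share thus lay in 1 gene.

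Levels of different genes were compared per kilobase of annotated exon. Aldh3a1 stood at 316277 normalized reads per kilobase in the cornea library and 135820 in that of the limbus, rank 2 and rank 5 among 16267 annotated genes. Aldh3b2, an enzyme of fatty aldehydes, came next among the 10 in both libraries, at 2209 and 2479 per kilobase, 143-fold and 54.8-fold below Aldh3a1. In the cornea it was followed by Aldh1a1 (1444), Aldh1a3 (1066), Aldh2 (589), Aldh9a1 (283), Aldh1a7 (161), Aldh3a2 (126), Aldh3b1 (113) and Aldh7a1 (105). In the limbus Aldh1a1 stood behind Aldh1a3 and Aldh2, with 324 per kilobase against 1198 and 721, and Aldh3b1 was lowest at 51.0. With the longest coding sequence as the length, Aldh1a1 (4743 per kilobase) stood above Aldh3b2 (3293) in the cornea, so the order of these 2 genes rests on the length used, while Aldh3a1 stayed first in both libraries under each length tried.

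**Figure D1:**
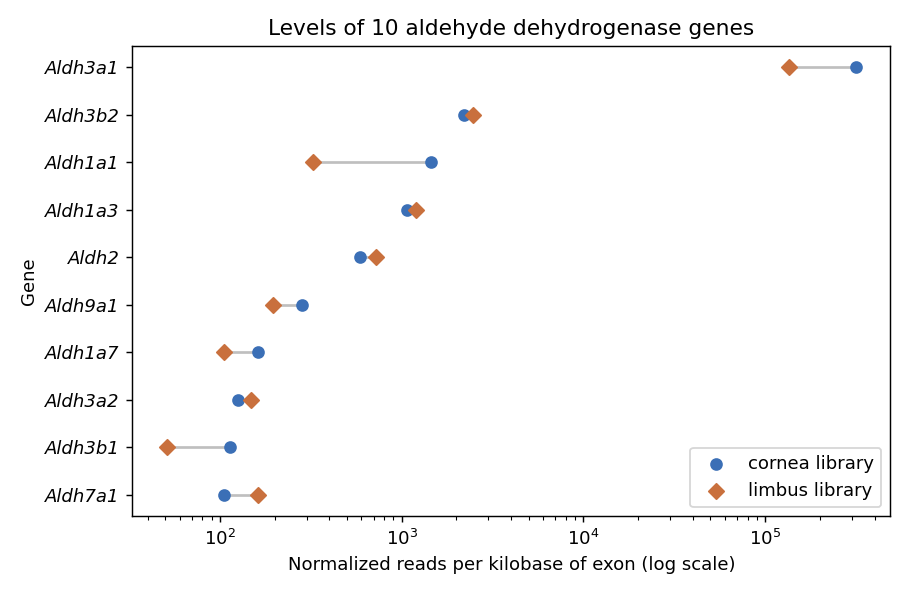
Normalized reads per kilobase of exon (log scale) for the 10 genes, with 1 point for the cornea library (circle) and 1 for the limbus library (diamond); there are no replicates and no error bars. Aldh3a1 lies at 316277 and 135820, more than 50-fold above every other member in both libraries, and Aldh1a1 shows the widest gap between libraries.

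Of the 10 genes, 3 were at least 2-fold higher in the cornea, Aldh1a1, Aldh3a1 and Aldh3b1, and 0 passed 2-fold toward the limbus. Over the 15572 genes with more than 3 reads in at least 1 library, 8.84% passed 2-fold toward the cornea and 20.8% toward the limbus. Among the 9883 genes with a mean at least that of the lowest member, the shares were 8.03% and 7.32%. At 1.5-fold, 4 members passed toward the cornea (Aldh1a7 besides the 3) and 1, Aldh7a1, toward the limbus, beside 20.5% and 27.3% of all genes. The 10 log2 ratios had a median of -0.18, beside 0.01 over all genes, and 5 of the 10 lay on each side of 0. All 10 counting intervals kept to one side of 0, as did those of 36.1% of all genes toward the cornea and 29.5% toward the limbus, so at this depth small differences between the 2 libraries exceed counting error; whether they exceed the spread between pools cannot be told with 1 library each.

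**Figure D2:**
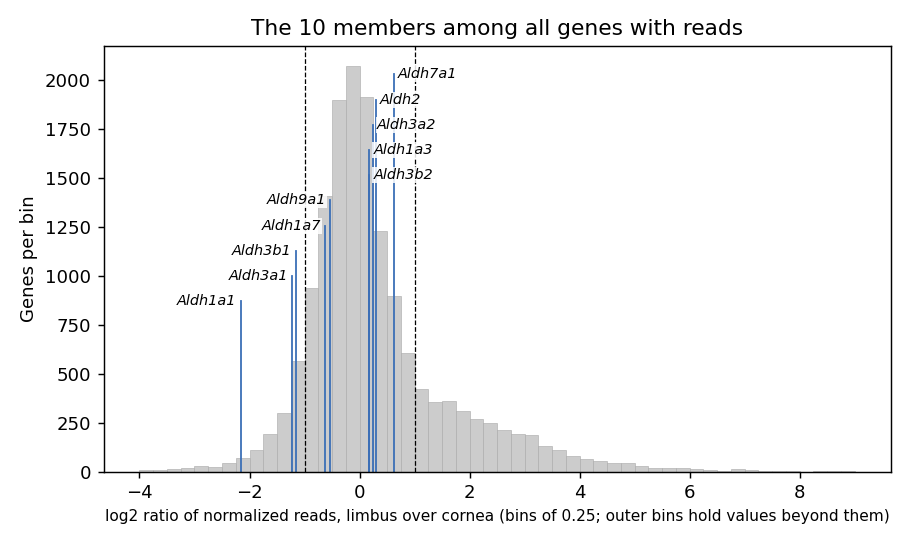
Histogram of the log2 ratio of normalized reads, limbus over cornea, for 15572 genes in bins of 0.25, with a vertical line at the value of each of the 10 members (line height has no meaning) and dashed lines at 2-fold. The members run from -2.16 for Aldh1a1 to 0.62 for Aldh7a1, and none reaches the long limbal tail on the right.

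Aldh3a1 was set beside the genes nearest to it in ratio, a choice that fixes their likeness. Among the 25 other genes that reached the normalized cornea reads of Aldh3a1 to within 10-fold, the nearest in log2 ratio to its -1.22 was Aqp5, a water channel of epithelia, at -1.19, whose interval of -1.20 to -1.17 did not meet that of Aldh3a1. Next were Lypd2 at -1.29, Col17a1, a hemidesmosomal collagen, at -1.31, Perp, a desmosomal protein, at -0.99 and Mgarp at -1.60. These values rest on 2 libraries only. Of the corneal epithelium markers, Krt12 (-2.19) lay below Aldh3a1, and Pax6 (-0.69), Krt5 (-0.41), Gjb6 (-0.37) and Clu (0.89) lay above it. For each normalized Krt12 read there was 0.558 of Aldh3a1 in the cornea library against 1.09 in the other, for each Krt5 read 1.03 and 0.588, and for each Pax6 read 35.0 and 24.3.

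A list of 8 other enzymes held crystallins of the cornea or lens in some species, plus Gsta4 and Nqo1. Of these 8, 7 were on the cornea side, 6 of them with their whole interval, and the median log2 ratio was -0.44. Gsta4 (-0.45) and Nqo1 (-0.67) were among the 6, and each was also counted in a later list. Over all genes tested, 7693 of 15572 were on the cornea side. Past 2-fold toward the cornea was 1 of the 8, near the 8.84% of all genes. That gene was Tkt, transketolase of the pentose phosphate pathway, another enzyme known for its abundance in the mouse cornea, with 180082 cornea and 54694 limbus reads (log2 ratio -1.62, interval -1.64 to -1.61). Gsta4, a glutathione transferase that takes up hydroxynonenal, had 152503 and 104460 reads (-0.45). Ldhb, lactate dehydrogenase B, was the exception, with 245 cornea and 657 limbus reads (1.52, 2.87-fold higher in the limbus). Eno1 had 65 and 45 reads, and 23.0% of its 75-base stretches are shared with its copy Eno1b and other loci, so its low count is uncertain.

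The retinaldehyde dehydrogenases, which make retinoic acid from retinaldehyde, went separate ways. Aldh1a1 had 7369 cornea and 1548 limbus reads, or 7128 and 1600 normalized, 4.45-fold higher in the cornea (log2 ratio -2.16, interval -2.24 to -2.08). It took 31.6% of the member reads outside Aldh3a1 in the cornea and 8.52% in the limbus. Aldh1a3 (chr7:66390890-66427517, minus strand) had 5088 and 5349 reads, 1.12-fold higher in the limbus (0.17, interval 0.11 to 0.22). Aldh1a2, the family's embryonic retinoic acid enzyme and not one of the 10, had 0 cornea and 271 limbus reads, at least 96.5-fold more for the limbus with the cornea library set to 3 reads. Aldh1a7, the rodent copy of Aldh1a1, is placed here for its sequence and not for its activity. It had 344 and 210 reads (333 and 217 normalized), 1.53-fold higher in the cornea (-0.62, interval -0.87 to -0.36). The interval of Aldh1a7 did not meet that of Aldh1a1, so the 2 copies differed in ratio by more than counting error.

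The downstream start of Aldh1a1 resembled the start of Aldh1a7. RefSeq promoters on GRCm38.p6 were matched for 5 of the 10 genes, Aldh1a1 (2 start sites), Aldh1a7, Aldh3a2, Aldh3b1 and Aldh9a1. The 100 bases before the downstream start of Aldh1a1 (chr19:20601868-20601967, plus strand) and before the start of Aldh1a7 (chr19:20727557-20727656, minus strand) were identical at 94 of 100 positions, with the 6 differences in capitals. Which start of Aldh1a1 these tissues use, and any part of these bases in the ratios, was not tested.
Aldh1a1 downstream start: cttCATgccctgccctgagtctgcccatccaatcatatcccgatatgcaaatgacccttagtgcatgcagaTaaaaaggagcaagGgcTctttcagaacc
Aldh1a7 start: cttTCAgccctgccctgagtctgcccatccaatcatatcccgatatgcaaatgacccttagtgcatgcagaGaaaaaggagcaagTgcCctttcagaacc
Over 250 bases without gaps the identity was 51.6%, and that of the upstream start of Aldh1a1 with the Aldh1a7 start was 25.2%. Both runs contain CCAAT, which 33.8% of 32851 mouse promoters of 250 bases hold on one strand or the other.

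Of the genes of retinoic acid synthesis and breakdown outside the family, 7 of 9 had more than 3 reads in a library, with a median log2 ratio of 0.53. Toward the cornea 0 passed 2-fold, and toward the limbus 2 did, beside 8.84% and 20.8% of all genes. Crabp2, a carrier of retinoic acid, had 103 cornea and 263 limbus reads (1.45). Cyp26a1, which breaks down retinoic acid, had 2 and 39 reads, a log2 ratio of 4.38 from those reads with a wide interval of 2.43 to 7.48. Cyp26b1, its relative, had 3256 and 2087 reads, 1.46-fold higher in the cornea, and Rdh11, a retinaldehyde reductase, lay lowest of the list at -0.68. In all, 5 of the 7 lay above 0, as did 7879 of 15572 genes, although Crabp1 at 0.04 was even within its interval of -0.36 to 0.44.

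Of the class 3 enzymes other than Aldh3a1, Aldh3b1 was higher in the cornea and the others were near even. Aldh3b1, which oxidizes medium and long chain aldehydes of lipid peroxidation, had 240 cornea and 101 limbus reads, 2.22-fold higher in the cornea (-1.15, interval -1.50 to -0.81). That interval reaches within 2-fold, so its place among the 3 is not firm by counting alone. Its promoter, shown because this gene passed 2-fold, has 2 GC boxes (GGGCGG, on either strand) in its last bases before the start at chr19:3929778, in capitals, a motif in 32.7% of all promoters (chr19:3929779-3930028, minus strand).
Aldh3b1 promoter: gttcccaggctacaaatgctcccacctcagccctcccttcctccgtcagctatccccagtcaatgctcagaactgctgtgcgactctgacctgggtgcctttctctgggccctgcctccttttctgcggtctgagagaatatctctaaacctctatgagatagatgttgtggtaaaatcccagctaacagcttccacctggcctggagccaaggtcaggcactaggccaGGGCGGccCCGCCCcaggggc
Aldh3b2 had 4891 and 5137 reads (0.17, interval 0.11 to 0.22). Aldh3a2, the microsomal fatty aldehyde dehydrogenase that also clears the aldehyde left when sphingosine phosphate is split, had 729 and 806 reads (0.24, interval 0.09 to 0.39). Sgpl1, the lyase that makes that aldehyde, lay on the other side, with 2454 and 1642 reads (-0.48).

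**Figure D3:**
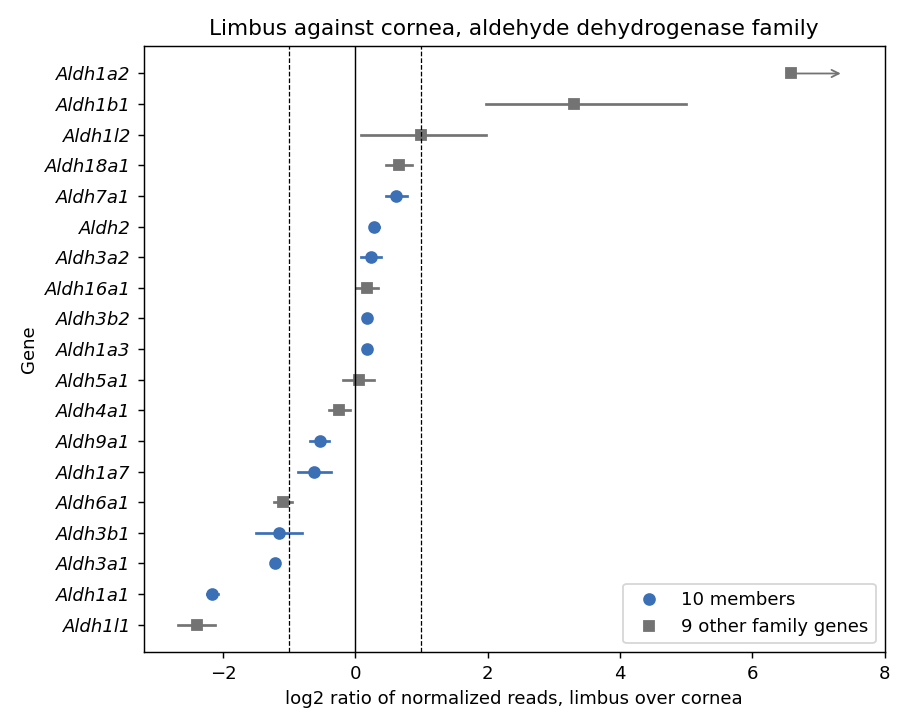
Log2 ratio of normalized reads, limbus over cornea, for the 10 members (circles) and the 9 other aldehyde dehydrogenase genes with reads (squares); horizontal lines are 95% Clopper-Pearson intervals of counting error from 1 library per tissue, dashed lines mark 2-fold, and the arrow marks Aldh1a2 as a lower bound at 6.59. Aldh1a1, Aldh3a1 and Aldh3b1 lie left of the lower dashed line and no member lies right of the upper one.

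The mitochondrial and housekeeping members lay within 2-fold, on both sides of 0. Aldh2 (chr5:121566027-121593824, minus strand), which clears acetaldehyde, had 3120 cornea and 3577 limbus reads (0.29, interval 0.22 to 0.36). Aldh7a1 on chromosome 18, which acts in lysine breakdown, had 562 and 809 reads, 1.54-fold higher in the limbus (0.62, interval 0.46 to 0.78), the highest ratio of the 10. Aldh9a1 (chr1:167349991-167368532, plus strand), which makes the precursor of carnitine, had 990 and 640 reads, 1.45-fold higher in the cornea (-0.53, interval -0.68 to -0.39). Among the partners of Aldh3a2, Aldh7a1 and Aldh9a1, 5 of 6 genes had more than 3 reads in a library, with a median log2 ratio of -0.09. Of these 5, 1 passed 2-fold toward the limbus and 0 toward the cornea, beside 20.8% and 8.84% of all genes. Tmlhe, the first enzyme of carnitine synthesis, had 252 and 125 reads (-0.92), while Bbox1, the last, had 2 and 29 (3.95 from those reads, interval 1.97 to 7.07). Aass, the first enzyme of lysine breakdown, had 49 and 64 reads, a difference within counting error (0.48, interval -0.08 to 1.05).

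The other family members held genes past 2-fold in both directions. Of the 9 other aldehyde dehydrogenase genes with reads, 3 passed 2-fold toward the limbus, Aldh1a2, Aldh1b1 (5 and 46 reads, log2 ratio 3.30) and Aldh1l2 (16 and 30 reads, log2 ratio within 0.08 to 1.98), and 2 toward the cornea, beside 20.8% and 8.84% of all genes. The latter were Aldh1l1, the cytosolic formyltetrahydrofolate dehydrogenase, with 713 and 127 reads (-2.39), and Aldh6a1, of valine and pyrimidine breakdown, with 1475 and 647 (-1.09, and -0.89 when scaled to total reads). Aldh16a1 (0.18), Aldh5a1 (0.05), Aldh4a1 (-0.24) and Aldh18a1 (0.66) were within 2-fold, and Aldh4a1 shares 28.7% of its stretches with an overlapping annotated gene. Aldh8a1 was listed at 0. Aldh1l1 and Aldh1l2, the cytosolic and the mitochondrial enzyme of the same reaction, thus stood on opposite sides.

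Other enzymes that handle aldehydes were counted in the same way. Of 10 with more than 3 reads in a library, 1 passed 2-fold toward the limbus, Aox3, an aldehyde oxidase, with 86 and 673 reads (3.06), and 0 toward the cornea, beside 20.8% and 8.84% of all genes, and the median log2 ratio was -0.08. Adh7, a retinol and alcohol dehydrogenase, had 33683 and 22399 reads (-0.49), and Adh1 had 33631 and 37529 (0.25). Akr1b8, an aldose reductase relative, was lowest at -0.92, just inside 2-fold. Of 14 genes of the aryl hydrocarbon receptor and of Nrf2, 2 regulators known to act on aldehyde dehydrogenase and detoxification genes, 3 passed 2-fold toward the limbus and 0 toward the cornea (median 0.17), a limbal share near the 20.8% of all genes. Ahrr, the receptor's repressor, led toward the limbus with 8 and 70 reads (3.23), Hmox1, heme oxygenase, had 62 and 145 (1.32), and Gclc, which starts glutathione synthesis, lay lowest at -0.87.

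**Figure D4:**
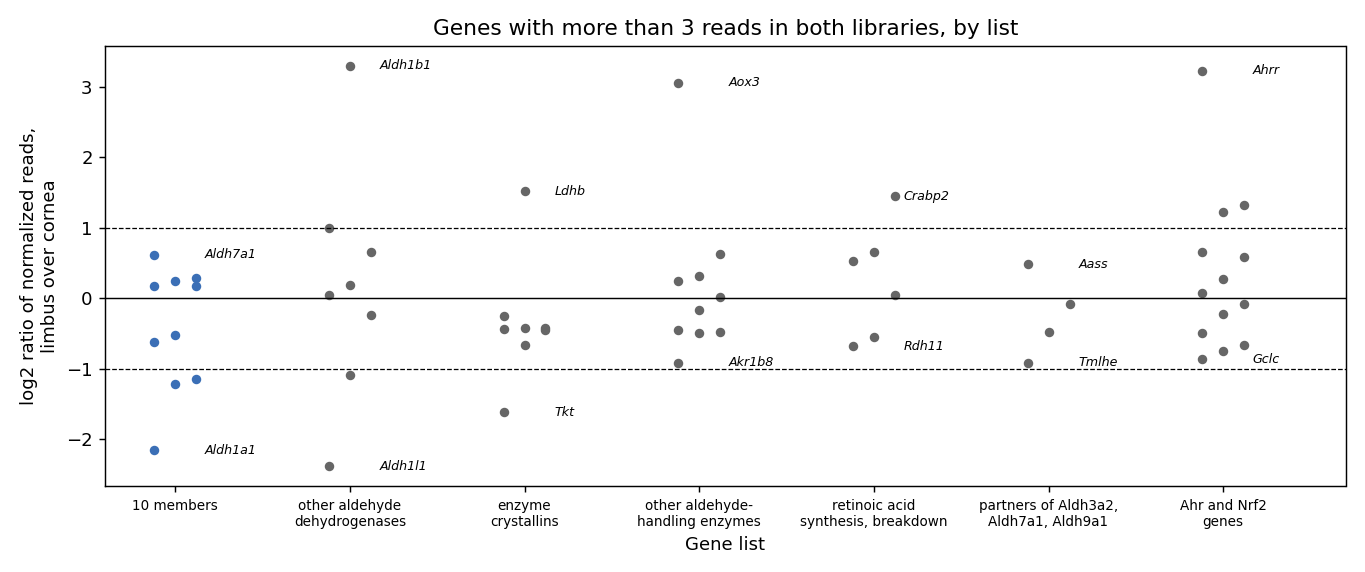
Log2 ratio of normalized reads, limbus over cornea, for the 10 members and 6 gene lists; each point is a gene with more than 3 reads in both libraries, spread sideways only for legibility, the lowest and highest gene of each list are named, and dashed lines mark 2-fold. The enzyme crystallin list, which also holds Gsta4 and Nqo1, lies mostly just below 0, with Tkt at -1.62 and Ldhb at 1.52. Aldh1b1, Aox3, Crabp2 and Ahrr lie above the upper dashed line.

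How many members passed 2-fold depended on what the reads were set against. Scaled to total reads, every log2 ratio moved by 0.21 toward the limbus, and Aldh3b1 came to -0.95. The 2 members Aldh1a1 (-1.95) and Aldh3a1 (-1.01) stayed past 2-fold toward the cornea, beside 5.68% of all genes. Per Krt5 read, and per Pax6 read, Aldh1a1 alone remained at least 2-fold higher in the cornea (-1.75 and -1.46), beside 3.96% and 2.29% of all genes, and Aldh7a1 became at least 2-fold higher in the limbus (1.03 and 1.31), beside 27.1% and 36.0%. Per Krt12 read, 8 of 10 were at least 2-fold higher in the limbus, as were 94.1% of all genes, and Aldh1a1 was even (0.03). The ratio of Aldh1a1 (-2.16) was thus close to that of Krt12 (-2.19), and that of Aldh3a1 lay between those of Krt12 and Krt5. These 3 markers are all epithelial. Of 6 keratocyte markers, 3 lay toward the cornea and 3 toward the limbus, from Kera at -2.99 to Ptgds at 3.49 (median 0.03). The 5 corneal endothelium markers all lay toward the limbus (median 0.64). Which cells carry the differences in the members was not tested.

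**Figure D5:**
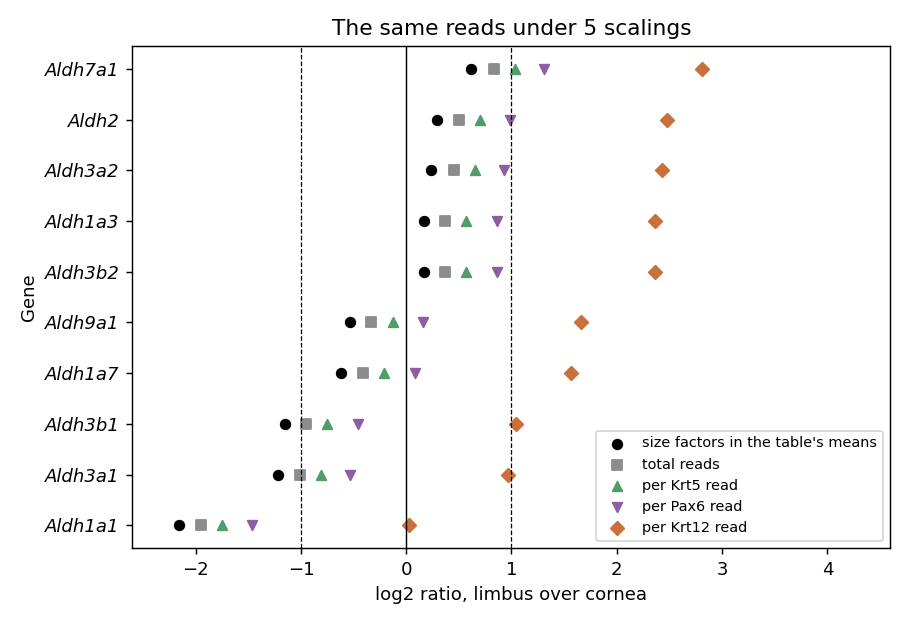
Log2 ratio, limbus over cornea, of the 10 members under 5 scalings of the same reads (size factors worked back from the table's means, total reads, and per read of Krt5, Pax6 or Krt12, the last 3 chosen after the values were seen), with dashed lines at 2-fold. Each scaling shifts all genes alike, Aldh1a1 is lowest throughout, and per Krt12 read it lies at 0.03 while Aldh3a1 lies at 0.97.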

How the data were processed

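Total RNA from the 2 pooled mouse tissues was sequenced by the authors with a stranded kit as paired ends of 75 bases, mapped with CLC Genomics Workbench to GRCm38 (mm10), and normalized, by their methods, with trimmed means of M-values. The deposited table holds, for 40904 rows of which 23420 name a gene, the mean normalized signal over both tissues, a log2 fold change, its error and p-values. The authors' log2 fold changes, errors and p-values are neither printed nor compared; the fold change and its error served only to choose which pair of whole reads made each mean. The table does not name its direction, which follows the study's text. Read pairs were found for all 17442 genes with a mean above 0, in steps set by weights of 109 and 102. The largest misfit was 1.93 reads. On simulated data 17442 of 17442 pairs and 200 of 200 set directions were recovered. The simulated data were made with the same weights, size factors and direction that the recovery assumed, so they cannot test those settings. The 17484 rows without a gene name were left out, so totals and shares of reads are of named genes only.

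Ratios are of normalized reads (limbus over cornea), with a call at 2-fold; for calls, medians and bounds, libraries at 3 reads or fewer are set to 3, while a gene with 1 to 3 reads in a library is printed with the ratio of its own reads and its interval. Exon lengths came from GENCODE M21 and promoters from RefSeq (GRCm38.p6); motifs were searched on both strands and no matches overlapped. Python 3.11.15, numpy 2.4.6, scipy 1.17.1 and pandas 2.3.3 were used. Named genes were the 10 members, the other family genes with reads, the highest and lowest of each list with over 3 reads in both libraries plus any gene whose role a sentence needs, and the 5 genes nearest in ratio to Aldh3a1. One gene first listed is not reported here. Members and lists were chosen with earlier results of these data known. Total reads, trimmed means, leaving out the 10 most abundant genes, a pseudocount of 1, other thresholds, other filters and other lengths were tried as alternatives.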

Additional observations from a re-analysis of the deposited data

How the results depend on the processing

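The count of members past 2-fold toward the cornea (3) became 2 with total reads and 4 at 1.5-fold, and 5 by the counting interval alone; toward the limbus (0) it became 1 at 1.5-fold and 5 by the counting interval. Per Krt12, Krt5 or Pax6 read, alternatives added after seeing the data, the cornea counts were 0, 1 and 1 and the limbus counts 8, 1 and 1. The members' median turned from -0.18 to 0.02 with total reads. Among all genes, total reads lowered the share past 2-fold toward the cornea to 5.68%, and a mean of at least 50 lowered that toward the limbus to 11.9%. Leaving out Aldh3a1 brought the member share of named-gene reads to 0.0894% and 0.0858%, and leaving out the 10 genes with the most reads (Aldh3a1 among them) to 0.108% and 0.0985%. With the longest transcript as length, 6 cornea ranks and 3 limbus ranks changed, and with the longest coding sequence 6 and 2. The next best read pairs would put Aldh3b1 at 0.73 and move 8 other members in size without turning them, to -6.12 (Aldh1a1), -2.52 (Aldh9a1), -1.97 (Aldh1a7), 2.34 (Aldh7a1), 1.75 (Aldh2), 1.08 (Aldh3a2), 1.02 (Aldh1a3) and 0.99 (Aldh3b2), so the 2-fold counts rest on the choice of pair. The closest such pairs, of Aldh9a1 and Aldh1a7, were off by 1.44 and 1.46 reads, against 0.0007 and 0.0003 for the chosen ones. No member changed side of 0 with total reads, trimmed means, total reads without the 10 most abundant genes or the pseudocount; per Krt12 and per Pax6 read, 10 and 7 members lay toward the limbus, against 5 before. No paired analysis was possible because the table holds no value per numbered sample, and leaving out a replicate was not run for the same reason.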

Other observations

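The table pairs each gene symbol with an accession. Of 18556 accessions found in RefSeq, 2 belonged to the gene named in the same row and 18554 to another gene, so rows were identified by symbol throughout, and the 10 members were not traced by accession.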
